A study of Homo sapiens with 4 samples.

Results

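Open chromatin was examined around 8 genes of the NRF2 antioxidant response: NFE2L2, which encodes NRF2, its inhibitor KEAP1, and the targets NQO1, HMOX1, GCLM, GCLC, SRXN1 and TXNRD1. A peak belonged to the set when its midpoint lay within 20 kb of the start site given for the gene on hg19, and to the promoter when it lay within 2 kb. The rule uses position only. It took 112 listed peaks, which merged into 38 regions of 78788 in all when peaks sharing at least 1 bp were joined. The cells were wild-type HCT116, an established line from a human colorectal cancer. They received tunicamycin at 0.5 µg/ml for 6 h (2 libraries) or the vehicle, 0.1% DMSO, for the same 6 h (2 libraries). Tunicamycin inhibits N-linked glycosylation, so that misfolded proteins build up and the endoplasmic reticulum (ER) comes under stress. ATAC-seq, in which a transposase inserts adapters into accessible DNA, was made from 50000 cells per library, and the series calls the libraries biological replicates. All groups were of this 1 line, and no marker of the cell type was checked, because no hg19 annotation was used here.

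NRF2 is a transcription factor of the CNC basic leucine zipper family that binds antioxidant response elements together with small MAF proteins. In unstressed cells KEAP1, the substrate adaptor of a CUL3 ubiquitin ligase, holds NRF2 in the cytoplasm for degradation, and oxidants or electrophiles that modify KEAP1 let NRF2 accumulate. Its targets make glutathione, run the thioredoxin system, reduce quinones and break down haem. PERK, an ER stress kinase, has been reported to phosphorylate NRF2 in mouse cells. The comparison of tunicamycin with DMSO therefore asks whether chromatin at these genes differed in listed accessibility under ER stress.

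The promoters of 7 of the 8 genes were listed as open in all 4 libraries, and none of the 19 regions common to all libraries passed the test for a change of rank or of width. The clearest difference in listing was a region 8.1 kb above the given TXNRD1 start, listed after tunicamycin in each library and after DMSO in none. GCLC was the gene without a promoter region common to the 4 libraries, and its promoter peaks were listed in different positions from library to library. The count of 7 depends on the rules. It was 8 when peaks up to 250 bp apart were joined, 6 when −log10 q had to reach 10 (NFE2L2 dropped out) and 6 when peaks had to share 50% of both (HMOX1 dropped out). Without tunicamycin replicate 1 or without DMSO replicate 2 it was 8.

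The lists held 58467 and 62526 peaks for tunicamycin replicates 1 and 2, against 56581 and 56566 for DMSO replicates 1 and 2. Each peak carries the authors' fold over local background and −log10 q-value. The read count at its summit was recovered from these, with a median of 15 to 16 reads. A percentile rank here is the place of a peak's q-value in its own list, with 100 the strongest. It is used because the lists hold no read totals. A peak that is not listed may still have reads: the smallest summit listed had 3 reads in both DMSO libraries, and no listed peak was under 100 bp wide.

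Within 20 kb of the 8 start sites 27 and 34 peaks were listed in the tunicamycin libraries, against 28 and 23 in the DMSO libraries. The means were 30.5 ± 4.95 and 25.5 ± 3.54 peaks (SD, n = 2 each), a 1.20-fold difference beside 1.07-fold for all peaks. With lists shortened to equal length the difference in means was 1 peak, against 5 with the full lists. It was 1.5 without tunicamycin replicate 2, 2.5 without DMSO replicate 2 and 8.5 without tunicamycin replicate 1. Without DMSO replicate 1 the tunicamycin mean of 30.5 stood against 23 peaks, a wider difference than with all libraries. With all libraries and the full lists the groups overlapped. A two-sided exact permutation test gave p = 0.667 (smallest possible p in a design of this size, 0.33). Tunicamycin replicate 2 had the longest list and the most peaks near these genes. TXNRD1 differed most, with 6 and 8 peaks after tunicamycin against 4 and 3 after DMSO, while GCLM had 1 peak in every library.

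Of the 38 regions, 19 (50%) were common to the 4 libraries, beside 51.3% of all regions. Gained regions, listed in both tunicamycin libraries and no DMSO library, numbered 2 (5.26%), beside 3.65% of all regions. Lost regions, the reverse, numbered 0, which allows a share of up to 7.89% for counting error only, beside 1.86% of all regions. These shares lay near the background. Another 5 regions were listed in 3 libraries, 2 in 1 library of each group, and 10 in a single library. Of those 10, 7 were in a tunicamycin library and 3 in a DMSO library. Tunicamycin replicate 2, with the longest list, held 5 of the 7. Shares of these patterns over all regions are not given here, so these counts are no result about the genes. At the edge of the window, the outermost peak inside lay 19884 bp below the NFE2L2 start at percentile rank 33.5, and the first outside lay 20008 bp above the SRXN1 start at rank 59.7. For promoters the outermost peak inside lay 1518 bp from the NFE2L2 start and the first outside 2596 bp from the TXNRD1 start, at ranks 33.9 and 32.0.

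**Figure D1:**
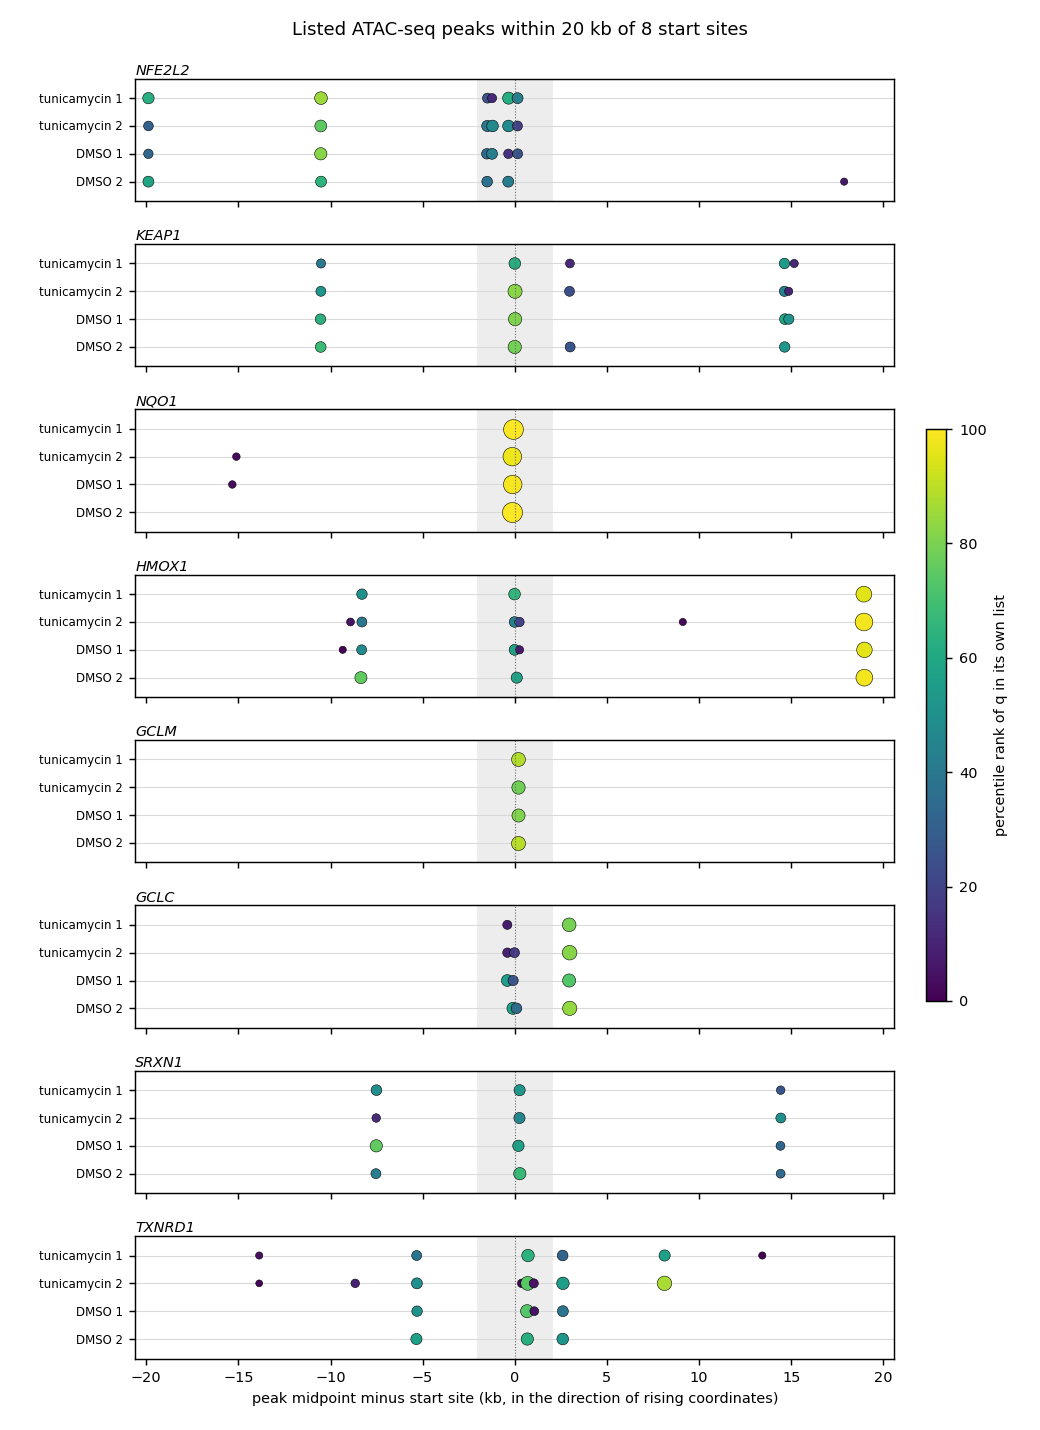
Listed peaks within 20 kb of each start site, with 1 row per library. The x axis is the peak midpoint minus the start site in kb, point size grows with summit reads, colour is the percentile rank in the own list, and grey shading marks the promoter. TXNRD1 has a peak 8.1 kb above its start in both tunicamycin libraries and none there in the DMSO libraries, whereas NQO1 and GCLM have 1 promoter peak in every library.

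The common regions were compared by rank. For each library the best q-value in every region common to all 4 was turned into a normal score, and limma was fitted to the scores of all 40447 such regions, tunicamycin minus DMSO. Of the 19 common regions near the antioxidant genes, 0 were called higher and 0 lower at an adjusted p of 0.05, beside 0.0346% and 0.0173% of all common regions. At an unadjusted p under 0.05 the count was 1 of 19, beside 7.33% of all common regions. The groups were fully separated, with tunicamycin higher, in 1 of the 19 (5.26%), beside 18.0% of all common regions. They were separated with tunicamycin lower in 3 (15.8%), beside 18.3%. The median change was -0.19 score units, against 0.00044 over all common regions, and 15 of the 19 changes (78.9%) were negative, beside 20208 of all 40447 common regions. The standard errors of single regions ran from 0.25 to 0.48, so a change had to be large to be called.

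**Figure D2:**
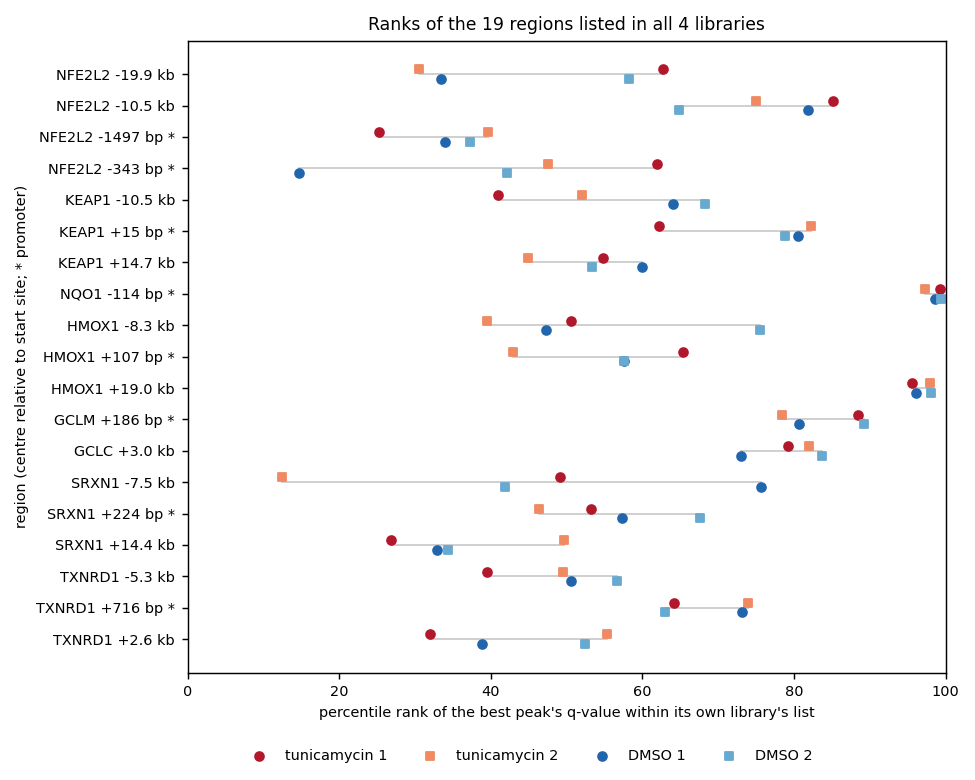
Percentile ranks of the 19 common regions, with 1 point per library (tunicamycin above DMSO in each row, circles for replicate 1 and squares for replicate 2). NQO1 at its promoter and the region 19 kb above HMOX1 sit above rank 95 in all libraries, and the NFE2L2 region 343 bp below its start is the one with both tunicamycin points above both DMSO points.

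NFE2L2 had 4 promoter regions, of which 2 were common. The common region on chromosome 2 at 178129404 to 178129629 (hg19), centred 343 bp below the start, had ranks of 62.0 and 47.6 in tunicamycin replicates 1 and 2, against 14.7 and 42.2 in DMSO replicates 1 and 2. Its summits held 23 and 21 reads after tunicamycin, against 12 and 18 after DMSO. Both tunicamycin values were above both DMSO values in rank and in reads, with DMSO replicate 1 far the lowest. The rank change was 0.82 ± 0.47 score units (SE, interval -0.11 to 1.75, limma adjusted p = 0.741), which did not pass the test. The same region was 206 and 226 bp wide after tunicamycin, against 187 and 172 bp after DMSO.

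The other common NFE2L2 promoter region, on chromosome 2 at 178128241 to 178128484, had ranks of 25.3 and 39.6 after tunicamycin, against 33.9 and 37.2 after DMSO, and the groups overlapped. Between and beside these lay a pair of regions listed in 3 libraries, centred 1.2 kb below and 150 bp above the start, and both were missing from DMSO replicate 2. The lower one had 11 and 21 reads after tunicamycin, against 18 reads in DMSO replicate 1. The upper one had 18 and 14 reads after tunicamycin, against 14 reads in DMSO replicate 1. Where these sites were listed, the read numbers of the groups touched or overlapped.

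Away from the promoter, the strongest NFE2L2 region lay 10.5 kb below the start, on chromosome 2 at 178119249 to 178119439. It held 26 and 22 reads after tunicamycin, against 24 and 18 after DMSO, at ranks of 85.2 and 75.0 against 81.8 and 64.8. RefSeq places NFE2L2 on the minus strand, so lower coordinates run into the gene. The region 19.9 kb below had ranks of 62.7 and 30.6 after tunicamycin, against 33.5 and 58.2 after DMSO, and the replicates of 1 group differed as much as the groups. A weak peak of 5 reads 17.9 kb above the start was listed in DMSO replicate 2 alone.

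KEAP1 had a single promoter region, listed in every library. It lay on chromosome 19 at 10613347 to 10613646, and its summits were at positions -39 to -18 relative to the given start. Reads at the summit were 21 and 33 after tunicamycin, against 29 and 29 after DMSO, and ranks were 62.2 and 82.2 against 80.6 and 78.8. The tunicamycin replicates lay on both sides of the DMSO replicates (change -0.30 ± 0.33, SE, interval -0.96 to 0.36, limma adjusted p = 0.909). The region 10.5 kb below the start, on chromosome 19 at 10602878 to 10603029, was lower after tunicamycin in both libraries, with ranks of 40.9 and 52.1 against 64.0 and 68.3 after DMSO. It held 11 and 14 reads after tunicamycin, against 16 and 17 after DMSO. The groups did not overlap, but the change of -0.68 ± 0.40 (SE, limma adjusted p = 0.753) did not pass the test.

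Further sites near KEAP1 lay above its start. A region 14.7 kb above had 16 and 15 reads after tunicamycin, against 17 and 16 after DMSO. In RefSeq the next coding gene on that side is S1PR5, a sphingosine 1-phosphate receptor. Whether sites on that side belong to a promoter of S1PR5 was not tested, since its hg19 position was not used here. A region 3.0 kb above the start was listed in both tunicamycin libraries, with 10 and 14 reads, against 14 reads in DMSO replicate 2 and no peak in DMSO replicate 1. Near 15 kb above the start, a further region had 8 reads in tunicamycin replicate 2 against 15 reads in DMSO replicate 1, and another had 8 reads in tunicamycin replicate 1 alone.

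The RefSeq table of promoters (GRCh38.p14, 250 bases before to 50 after each start) held 10 promoters for 7 of the 8 genes. They were searched on both strands for the core of the antioxidant response element, TGACNNNGC, because NRF2 binds such elements. The core was present in 4 of the 10, at KEAP1, GCLM and TXNRD1, beside 13.3% of the 35116 promoters in the table. The last 150 bases before the start of these 4 are shown so that the match can be read in place, with the core in capitals on either strand. Their coordinates are GRCh38.p14 and were not carried over to the hg19 peaks, so whether a peak covers a match was not tested. The TXNRD1 starts, at 104215779 and 104287032, lie too far apart for both to be in the window around the given start. The 10 and the 4 thus include a TXNRD1 promoter from outside the window in which peaks were counted. Which TXNRD1 start lies outside was not tested.
KEAP1, chr19:10502772-10502921, minus strand: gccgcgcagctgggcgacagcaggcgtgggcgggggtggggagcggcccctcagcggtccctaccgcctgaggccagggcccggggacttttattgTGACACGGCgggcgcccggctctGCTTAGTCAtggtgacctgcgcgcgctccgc
GCLM, chr1:93909431-93909580, minus strand: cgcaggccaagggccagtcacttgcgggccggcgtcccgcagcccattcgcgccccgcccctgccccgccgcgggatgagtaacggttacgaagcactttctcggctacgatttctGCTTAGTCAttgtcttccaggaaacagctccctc
TXNRD1 first start, chr12:104215629-104215778, plus strand: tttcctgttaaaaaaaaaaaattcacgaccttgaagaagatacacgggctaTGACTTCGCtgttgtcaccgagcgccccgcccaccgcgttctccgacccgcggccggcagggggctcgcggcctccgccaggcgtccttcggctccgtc
TXNRD1 second start, chr12:104286882-104287031, plus strand: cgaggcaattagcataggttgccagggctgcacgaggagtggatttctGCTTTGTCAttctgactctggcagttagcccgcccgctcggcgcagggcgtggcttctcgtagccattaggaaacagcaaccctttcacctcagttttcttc

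KEAP1 and GCLM carried the same 9 letters, GCTTAGTCA, 31 to 23 and 34 to 26 bases before the start. Read on the other strand they are TGACTAAGC. KEAP1 held a further match, TGACACGGC, 54 to 46 bases before the start. At TXNRD1 the first start had TGACTTCGC 99 to 91 bases before it, and one more match that reached the first base of the transcript and is not in the printed stretch. The second start had GCTTTGTCA, or TGACAAAGC on the other strand, 102 to 94 bases before it. The AP-1 type motif TGANTCA was in 0 of the 10 promoters, beside 7.71% of all promoters in the table. The ER stress response element, CCAAT and CCACG separated by 9 bases, was in 0 of the 10 beside 0.0769% of all. HMOX1 has no entry in the table. A match is a string of letters and was not tested for binding.

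Other genes of the NRF2 pathway were looked at by promoter sequence only, since their hg19 positions were not used here. Of 31 listed genes 22 were in the table with 29 promoters. The antioxidant core was in 8 of the 29, beside 13.3% of all promoters in the table. They belonged to CBR1, EPHX1, GPX2, MAFF, ME1, PGD, PIR and RBX1. ME1 and PIR also held the AP-1 type motif, as did BACH1 and OSGIN1. That made 4 of the 29 promoters, beside 7.71% of all promoters. The difference from these shares was not tested.

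The glutathione synthesis genes differed in the layout of their peaks. GCLM encodes the modifier subunit of glutamate-cysteine ligase, the enzyme that limits glutathione synthesis, and had 1 region, on chromosome 1 at 94375033 to 94375365, in the whole window. Its summit reads were 32 and 29 after tunicamycin, against 28 and 33 after DMSO, and its ranks were 88.4 and 78.4 against 80.7 and 89.2. The groups overlapped fully (change -0.12 ± 0.31, SE, interval -0.73 to 0.50, limma adjusted p = 0.975). Its width was 294 and 300 bp after tunicamycin, against 315 and 323 bp after DMSO, so both tunicamycin peaks were a little narrower. The width ratio of 0.931 had an interval of 0.786 to 1.10.

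GCLC encodes the catalytic subunit of the same enzyme. Its strongest region was not at the given start but 3.0 kb above it, on chromosome 6 at 53412713 to 53413085. That region held 31 and 36 reads after tunicamycin, against 28 and 34 after DMSO, at ranks of 79.2 and 82.0 against 73.0 and 83.7. It did not differ beyond the spread of the replicates (change 0.027 ± 0.32, SE, interval -0.61 to 0.67, limma adjusted p = 0.994). RefSeq places GCLC on the minus strand, so this site lies before the gene.

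Neither of the 2 GCLC promoter regions was listed in all libraries. The region at 53409778 to 53410074, across the start itself, had 14 reads in tunicamycin replicate 2 and no listed peak in tunicamycin replicate 1, against 15 reads in DMSO replicate 1 and a pair of peaks of 23 and 17 reads in DMSO replicate 2. The region at 53409406 to 53409648 had 11 and 12 reads after tunicamycin, against 22 reads in DMSO replicate 1 and no listed peak in DMSO replicate 2. In both regions every listed tunicamycin summit was lower than every listed DMSO summit. A test could not be made where a library had no peak. When peaks up to 250 bp apart were joined, both regions became 1 region listed in every library, and its best peaks had ranks of 7.83 and 17.0 after tunicamycin, against 55.6 and 58.6 after DMSO. Both tunicamycin ranks were below both DMSO ranks, but the change of -1.73 ± 0.50 (SE, interval -2.71 to -0.74, limma adjusted p = 0.230) did not pass the test. Without tunicamycin replicate 2 the region across the start was a lost region. Without DMSO replicate 1, in contrast, the region at 53409406 to 53409648 was a gained region. The listing at this promoter thus went either way with the library left out. If peaks were joined only when they shared at least 50% of both, the DMSO peaks across the start formed a lost region of their own, because the broader peak in tunicamycin replicate 2 no longer counted as the same site.

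NQO1, a quinone reductase and a classical NRF2 target, had the strongest promoter of the set. Its region on chromosome 16 at 69760264 to 69760651 held 70 and 61 reads at the summit after tunicamycin, against 61 and 72 after DMSO. Its ranks were 99.3 and 97.3 after tunicamycin, against 98.6 and 99.4 after DMSO. The peak was thus among the strongest of each list, and the groups overlapped (change -0.20 ± 0.25, SE, interval -0.70 to 0.30, limma adjusted p = 0.929). The summits lay at positions -227 to -192 relative to the start, which is within the gene on the minus strand. The only other listed peaks were of 6 reads in tunicamycin replicate 2 and 6 reads in DMSO replicate 1, 15.1 kb and 15.3 kb below the start.

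HMOX1 encodes haem oxygenase 1, which degrades haem. Its promoter region on chromosome 22 at 35776944 to 35777391 was of middle rank, at 65.4 and 43.0 after tunicamycin against 57.6 and 57.6 after DMSO. Summits held 21 and 17 reads after tunicamycin, against 18 and 19 after DMSO, and the tunicamycin replicates lay on both sides of the DMSO replicates. The change was -0.19 ± 0.40 (SE, interval -0.99 to 0.62, limma adjusted p = 0.969). The region was made of 1 peak in tunicamycin replicate 1 and DMSO replicate 2, and of 2 peaks in the other two libraries. Summed widths were 207 and 358 bp after tunicamycin, against 362 and 447 bp after DMSO, a ratio of 0.677 with an interval of 0.399 to 1.15. With the full lists this separation rested on a weak second peak of 144 bp in DMSO replicate 1, at rank 6.77. With −log10 q of 5 or more the widths were 207 and 358 bp after tunicamycin, against 218 and 447 bp after DMSO, and the groups overlapped, with a ratio of 0.872. With −log10 q of 10 or more they were 207 and 202 bp after tunicamycin, against 218 and 447 bp after DMSO. The groups were then apart again, with a ratio of 0.655. The ratio was 0.938 without DMSO replicate 2 and 0.89 without tunicamycin replicate 1.

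A second HMOX1 region, 8.3 kb below the start on chromosome 22 at 35768655 to 35768865, had 16 and 14 reads after tunicamycin, against 14 and 23 after DMSO. DMSO replicate 2 stood apart there, with a rank of 75.5 beside 39.5 to 50.6 in the other libraries. The strongest region of the window lay 19 kb above the start, on chromosome 22 at 35795859 to 35796170. It held 43 and 55 reads after tunicamycin, against 41 and 49 after DMSO, at ranks of 95.6 and 98.0 against 96.1 and 98.1. In RefSeq the next coding gene on that side is MCM5, a subunit of the replicative helicase. Whether this region is a promoter of MCM5 was not tested, since hg19 positions of other genes were not used here. The remaining 3 HMOX1 regions had 5 to 7 reads, each in 1 library.

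**Figure D3:**
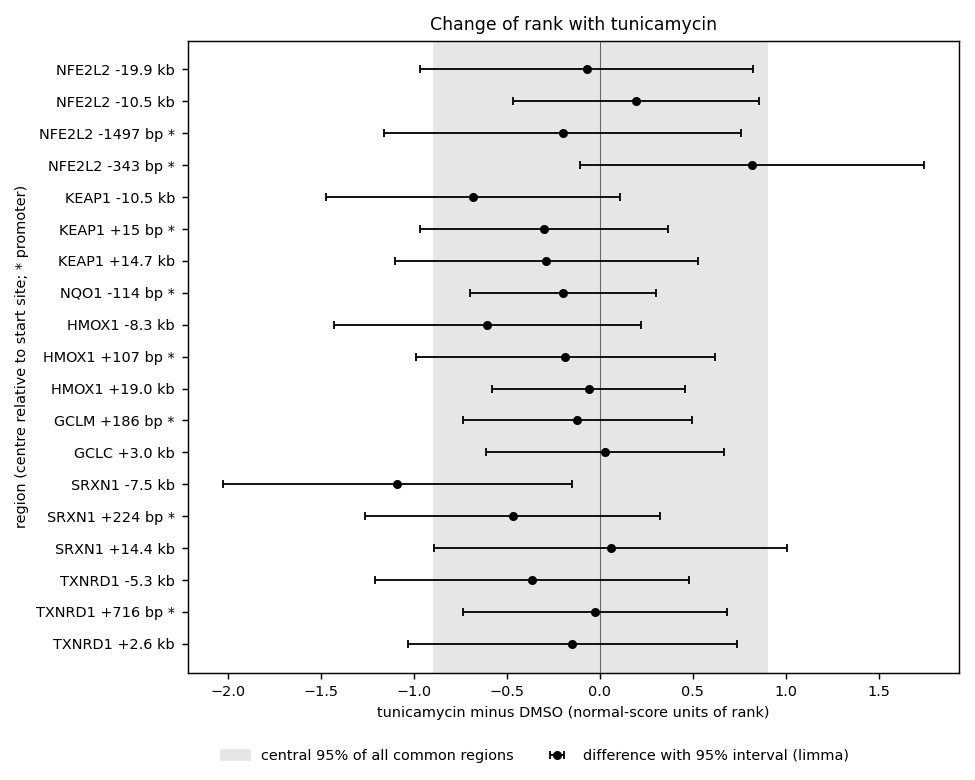
Change of rank with tunicamycin at the 19 common regions, in normal-score units (tunicamycin minus DMSO), with the 95% interval from limma. The grey band holds the central 95% of all common regions. The region 7.5 kb below SRXN1 is the one whose interval does not cross 0, and no region passed the adjusted threshold.

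SRXN1 and TXNRD1 serve the peroxiredoxin and thioredoxin systems. SRXN1 encodes sulfiredoxin, which reactivates overoxidised peroxiredoxins. Its promoter region on chromosome 20 at 633825 to 634283 held 19 and 19 reads after tunicamycin, against 20 and 24 after DMSO. Ranks were 53.2 and 46.4 after tunicamycin, against 57.3 and 67.6 after DMSO, and widths were 315 and 337 bp against 402 and 365 bp. Rank and width were thus lower in both tunicamycin libraries than in both DMSO libraries. Neither passed the test: the rank changed by -0.47 ± 0.40 (SE, interval -1.26 to 0.33, limma adjusted p = 0.865), and the width ratio was 0.851 (interval 0.705 to 1.03, limma adjusted p = 0.846).

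The SRXN1 region 7.5 kb below the start, on chromosome 20 at 626196 to 626430, had the lowest p-value among the 19. It held 17 and 9 reads after tunicamycin, against 24 and 14 after DMSO, and its ranks were 49.1 and 12.5 against 75.7 and 41.9. The replicates of each group lay far apart and the groups overlapped. The change was -1.09 ± 0.47 (SE, interval -2.03 to -0.15, limma adjusted p = 0.598). Its size hung on single libraries: it was -0.33 without tunicamycin replicate 2 and -0.54 without DMSO replicate 1, but -1.76 without tunicamycin replicate 1 and -1.57 without DMSO replicate 2. Above the start, 14.4 kb away, a weaker region had 9 and 14 reads after tunicamycin, against 10 and 10 after DMSO.

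TXNRD1 encodes cytosolic thioredoxin reductase. Its start is given as a round position, 104680000 on chromosome 12, and distances from it are only as exact as that position. The common promoter region at 104680590 to 104680844 had its summits 635 to 649 bp above that position in all libraries. Reads were 25 and 32 after tunicamycin, against 28 and 24 after DMSO, at ranks of 64.2 and 73.9 against 73.1 and 63.0. Rank did not separate the groups (change -0.024 ± 0.36, SE, interval -0.73 to 0.69, limma adjusted p = 0.995).

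The width of this TXNRD1 promoter peak did separate them. It was 255 and 220 bp wide after tunicamycin, against 158 and 145 bp after DMSO, a ratio of 1.56 with an interval of 1.21 to 2.03. The adjusted p from limma over all common regions was 0.657, so the change was not called. The separation also depended on the rule for joining. With peaks up to 250 bp apart joined, the summed widths were 255 and 492 bp after tunicamycin, against 368 and 145 bp after DMSO. The groups then overlapped. Over all 19 common regions 0 were called wider and 0 narrower, beside 0.00% each way among all common regions, where limma called none. At an unadjusted p under 0.05 there were 2 of 19, the TXNRD1 promoter and the region 14.4 kb above SRXN1, beside 6.21% of all common regions. Both tunicamycin widths lay above both DMSO widths in 5 of the 19 (26.3%) and below in 8 (42.1%), beside 20% (8105) and 13.6% (5517) of the 40447 common regions. The 8 narrower regions included the promoters of NQO1, GCLM, SRXN1 and HMOX1. For HMOX1 this held with the full lists but not with −log10 q of 5 or more. The 5 wider ones included the promoters of NFE2L2 and TXNRD1. Since the width of none of these passed the test, the split is a count and not a finding for any gene.

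**Figure D4:**
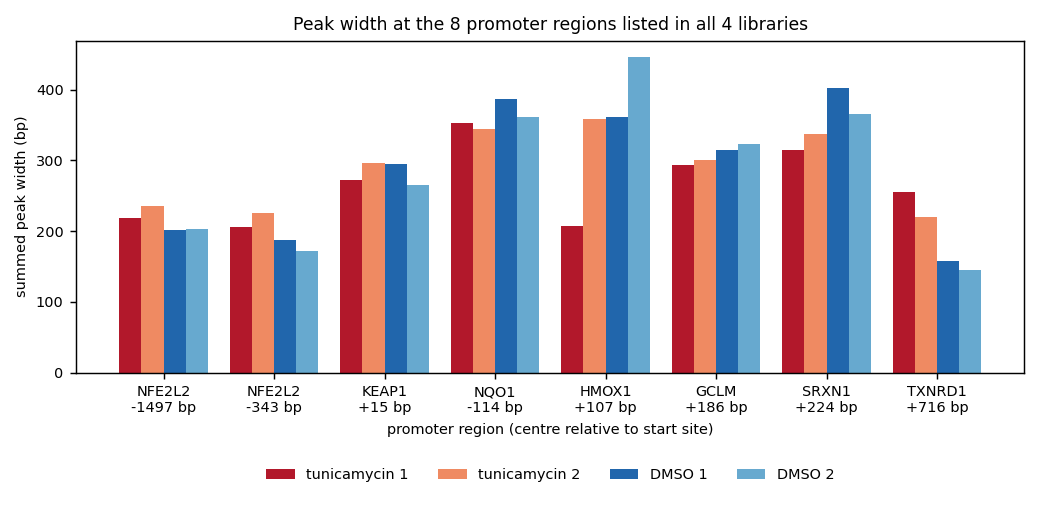
Summed peak width in bp at the 8 promoter regions listed in all 4 libraries, with 1 bar per library (tunicamycin 1 and 2, then DMSO 1 and 2). At TXNRD1 the tunicamycin bars reach 255 and 220 bp beside 158 and 145 bp for DMSO, while at SRXN1 both tunicamycin bars are lower than both DMSO bars.

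The gained region above TXNRD1 lay on chromosome 12 at 104688043 to 104688206, with its centre 8.1 kb above the given start. Its peaks were 150 and 164 bp wide, with summits of 19 and 35 reads in tunicamycin replicates 1 and 2, and no peak was listed there in either DMSO library. The authors' folds over local background were 11.3 and 18.8, and the ranks 56.6 and 87.0. Replicate 2 was much the stronger of the tunicamycin libraries. The summits lay 8145 and 8153 bp above the start, 8 bp apart. The nearest DMSO peaks were 5514 and 5522 bp away. Of all DMSO peaks, 62.9% in replicate 1 and 62.0% in replicate 2 were listed with fewer than the 19 reads of the weaker tunicamycin summit. Reads in the DMSO libraries at this site were not measured, and with 2 libraries per group a difference in listing has no test.

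Among the 2878 gained regions of the genome this one was number 40 by mean percentile rank, at 71.8 beside a median of 21.8. Its mean width was 157 bp, beside a median of 126 bp. It was one of 170 gained regions above rank 50 in both tunicamycin lists, and one of 255 with at least 150 bp in both. It was one of 9 that met both limits, which were taken up with earlier results of these lists known. Its own peak in tunicamycin replicate 1 was exactly 150 bp wide, so it only just met the width limit. The region was gained under each of the 6 other ways of filtering or joining the lists with all libraries kept. None of the 6 could have ended this listing, so the count adds no support. Its −log10 q values of 17.8 and 39.6, its ranks and its widths of 150 and 164 bp met every limit. The nearest DMSO peaks were too far off to be joined. Leaving out a library cannot end such a listing either. The other gained region near TXNRD1, 13.9 kb below the start at 104666031 to 104666227, had 5 and 4 reads and ranks of 3.94 and 0.972. It was number 2828 of the gained regions and was gained under 3 of the same 6 alternatives, but not at either stricter q-value or with lists of equal length.

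**Figure D5:**
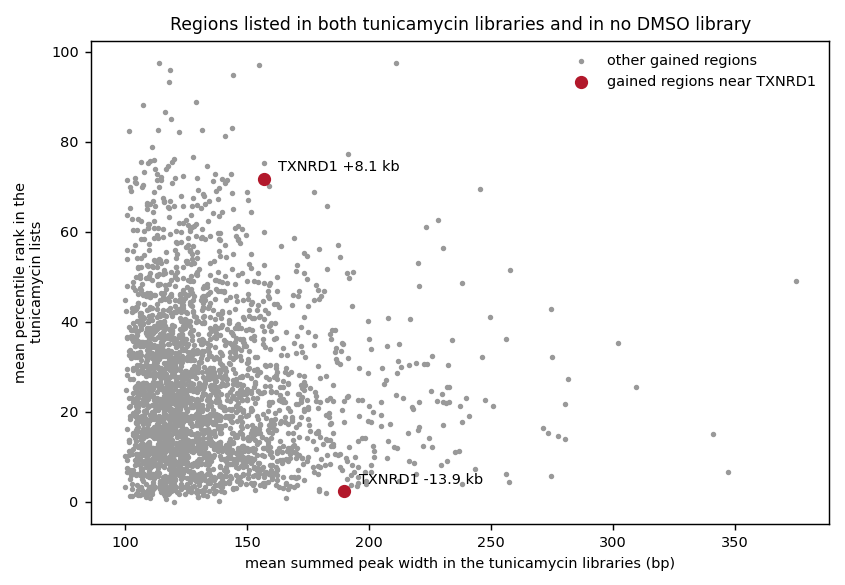
The 2878 gained regions of the genome by mean summed width in bp (x axis) and mean percentile rank (y axis) in the tunicamycin lists, with both regions near TXNRD1 in red. The region 8.1 kb above TXNRD1 is at rank 71.8 and 157 bp, and the one 13.9 kb below is near the bottom at rank 2.45.

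Other TXNRD1 sites were common or weak. The region 5.3 kb below the start had ranks of 39.5 and 49.5 after tunicamycin, against 50.6 and 56.7 after DMSO, lower in both tunicamycin libraries (change -0.36 ± 0.42, SE, limma adjusted p = 0.920). The region 2.6 kb above had ranks of 32.0 and 55.4 after tunicamycin, against 38.8 and 52.4 after DMSO, and the groups overlapped. Another 3 regions were listed in a single tunicamycin library with 5 to 9 reads, among them a promoter region 374 bp above the start with 9 reads in replicate 2. A further promoter region, 1054 bp above the start, had 11 reads in tunicamycin replicate 2 against 10 reads in DMSO replicate 1.

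Widths of promoter and other regions overlapped, with a higher median at promoters. The 8 common promoter regions had mean widths of 195 to 362 bp with a median of 295 bp, and the 11 common regions farther away had a median of 164 bp and a range of 120 to 325 bp. The median over all common regions was 183 bp. In rank the promoters spread widely, from a mean percentile of 34.0 at the lower NFE2L2 region to 98.6 at NQO1. The regions farther away may include promoters of other genes, whose hg19 positions were not used here. No test was made of the differences in width and rank.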

How the data were processed

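The deposited data were 1 list of peaks per library on hg19. Tools given without order or settings are MACS2 2.2.7.1, Bowtie2 2.3.5.1, Picard 2.18.23, Trim Galore, deepTools and SAMtools, per the submitters' processing notes. Any read shift for the transposase is not given in the sources used here. Each list gives, per the deposited values, a fold ratio over local background, −log10 p- and q-values, and a whole-number score of 10 times the −log10 q-value. Libraries were grouped by title. From the fold and p-value a whole-number summit pileup was recovered, within 0.001 of the −log10 p-value for 100% of peaks, and is called reads. Read totals were not used here, so depth is known only through summits. Peaks sharing 1 bp or more were merged (Python 3.11.15, pandas 2.3.3, numpy 2.4.6, scipy 1.17.1). Regions listed in all 4 libraries entered limma 3.58.1 under R 4.3.3, where the prior spread followed the mean, with Benjamini-Hochberg adjustment over 40447 regions, as normal scores of rank and as log2 of summed width. Intervals are 95% intervals from that fit. The steps were tested on simulated data. By rule all 8 genes were named, with each promoter, common, gained or lost region described and other regions given mainly by counts and ranges. S1PR5, MCM5 and the pathway genes were named outside that rule, from the reference table. Members, lists and tests were chosen with earlier results of these data known. Alternatives were stricter q-values, equal lists, other rules for joining, widths of at least 130 bp, other windows, rank by fold, 1 prior spread, a block for the replicate number, and leaving out every library in turn. The p-values from limma rest on the spread between these libraries, drawn towards the prior spread of all common regions.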

Additional observations from a re-analysis of the deposited data

How the results depend on the processing

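None of the regions near the 8 genes passed the limma threshold for rank or width under any alternative run. Of 236 rank changes of the 19 common regions recomputed under the alternatives, 18 changed sign without being called, all of them with a library left out. With all libraries kept, the lowest limma adjusted p of these rank changes was 0.507. The GCLC promoter region formed by joining peaks up to 250 bp apart is not among the 19. Its rank change had a limma adjusted p of 0.230. Of 198 width changes 8 changed sign, and the lowest adjusted p was 0.55. The cause of the shifts below was not tested, bar those that fewer or more peaks give by construction.

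Peaks near the 8 genes, at 5 more per library after tunicamycin than after DMSO, turned to a difference of -1.5 with a −log10 q of at least 10. Gained regions near the genes numbered 1 at both stricter q-values (−log10 q from 5 or from 10 up), 1 with lists of equal length and 1 in a window of 10 kb, each time the region 8.1 kb above TXNRD1. Lost regions numbered 1, at the GCLC start, with an overlap of 50% of both peaks. The number of regions was 25 within 10 kb. Within 50 kb it was 68, of which 32 were common, 5 gained and 1 lost. The gained ones were the pair near TXNRD1 and sites 35.9 kb above NQO1, 40.8 kb above KEAP1 and 42.9 kb below HMOX1, and the lost one lay 45.3 kb above HMOX1. With a library left out, gained regions near the genes numbered 3 to 7 and lost regions 0 to 2, as the rule then asks less of the smaller group or of the absent one. Gained regions were 7 without tunicamycin replicate 1, 4 without tunicamycin replicate 2 and 5 without DMSO replicate 1, all holding both TXNRD1 regions.

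Among all common regions, limma calls of higher rank numbered 14 and of lower rank 7. Higher calls were 5 when −log10 q was 10 or more, and 7 when peaks under 130 bp were dropped. Ranking by fold gave 0 higher and 0 lower, as did 1 prior spread. With a library left out the higher calls ran from 0, without tunicamycin replicate 1, to 28, without DMSO replicate 2, and the lower calls from 2, without DMSO replicate 2, to 11, without tunicamycin replicate 2. With the replicate number as a block 19 were higher and 16 lower, and 0 of them were near the 8 genes. Deviations of same-numbered libraries from their group means had a correlation of 0.0111 over the common regions for rank. A value over all regions cannot show whether same-numbered libraries were made together, and this was not tested. Low summit counts limit the weaker sites, many of which rest on under 10 reads.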
